A study of Mus musculus with 7 samples.

Results

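Cytochrome P450 genes of families 1 to 4 were followed in livers of mice that lack miR-122. The members were chosen by symbol, as every gene whose name starts with Cyp1, Cyp2, Cyp3 or Cyp4 followed by a letter. The Cyp2b genes, Cyp4a10 and Cyp4a14 were left out, and a probe set counted where it names a single gene. This gave 51 of the 18193 genes measured, with 3 in family 1, 31 in family 2, 5 in family 3 and 12 in family 4. Livers of 4 miR-122 knockout mice (KO) were set against livers of 3 wild-type mice (WT). All 7 mice were 2 months old and of a B6/129 background, and each gave frozen liver for 1 Affymetrix array. The labels do not say how the gene was deleted or in which cells, nor the sex, litter or processing day of the animals. P-values set the difference between genotypes against the spread among livers of the same genotype. An uneven sex, litter or processing day cannot be told apart from genotype.

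P450 enzymes are haem proteins of the endoplasmic reticulum that insert oxygen into drugs, pollutants, steroids and fatty acids, with electrons handed on by P450 reductase and cytochrome b5. The first families hold the main drug and toxin oxidising enzymes of hepatocytes, and the last of them hydroxylates fatty acids and eicosanoids at the end of the chain. Their genes answer to ligand-activated factors such as the aryl hydrocarbon receptor, the pregnane X receptor and the constitutive androstane receptor. Several mouse members also differ between the sexes through growth hormone and STAT5b, or between the portal and the central end of the liver lobule. miR-122 is a microRNA abundant in hepatocytes, and the comparison asks how liver gene expression differs without it.

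Levels are log2 values and differences are knockout minus wild type on that scale. Values of single livers run by the number in the sample title, first KO-03, KO-90, KO-91, KO-94, then WT-27, WT-103, WT-104. The brightest of 27 bacterial control probe sets, at 4.71 to 5.23 depending on the array, was taken as the floor of measurable signal. A difference given as "at least" has the dimmer genotype's arrays raised to that floor. Of the 51 members, 33 were above the floor in every liver and 11 in none. Hepatocyte markers matched the tissue label, with 10 of 10 above the floor in every liver and 0 past the test. Tat was higher in every knockout than in any wild type, with a difference of 0.90 (limma adjusted p = 0.0533). Cps1 was lower in every knockout, with a difference of -0.08. No probe set names miR-122, so its loss could not be checked here. KO-03 stood nearest the wild types on the first principal component of all genes, at -1.32, against 15.8 to 42.5 for the other knockouts and -32.3 to -20.1 for the wild types.

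Most P450 members did not pass the test, and those that did went both ways. In limma at an adjusted p under 0.05 over all genes, 3 of 51 members rose in the knockout (Cyp1b1, Cyp2d12 and Cyp4f16), or 5.88%, where 2.58% of all genes rose. Another 4 fell (Cyp2r1, Cyp2u1, Cyp4a12a and Cyp2d40), or 7.84%, where 0.951% of all genes fell. The median difference of the members was -0.07, against 0.01 for all genes, and it was -0.13 for the 40 members above the floor in at least 1 liver. All knockouts lay above all wild types in 5 members, or 9.8% (9.15% of all genes), and below them in 9 members, or 17.6% (6.61% of all genes). At an unadjusted p under 0.05 stood 18 of 51 members and 2981 of 18193 genes. Cyp2r1 and Cyp2u1 kept their calls when any single liver was left out, and the other 5 did not. Without KO-91 or without any one wild type, 0 members rose. Without KO-03, 2 members rose and 9 fell, where 892 of all genes rose and 252 fell, against 470 and 173 with all livers. Without KO-90, KO-91 or any one wild type 2 members fell.

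**Figure D1:**
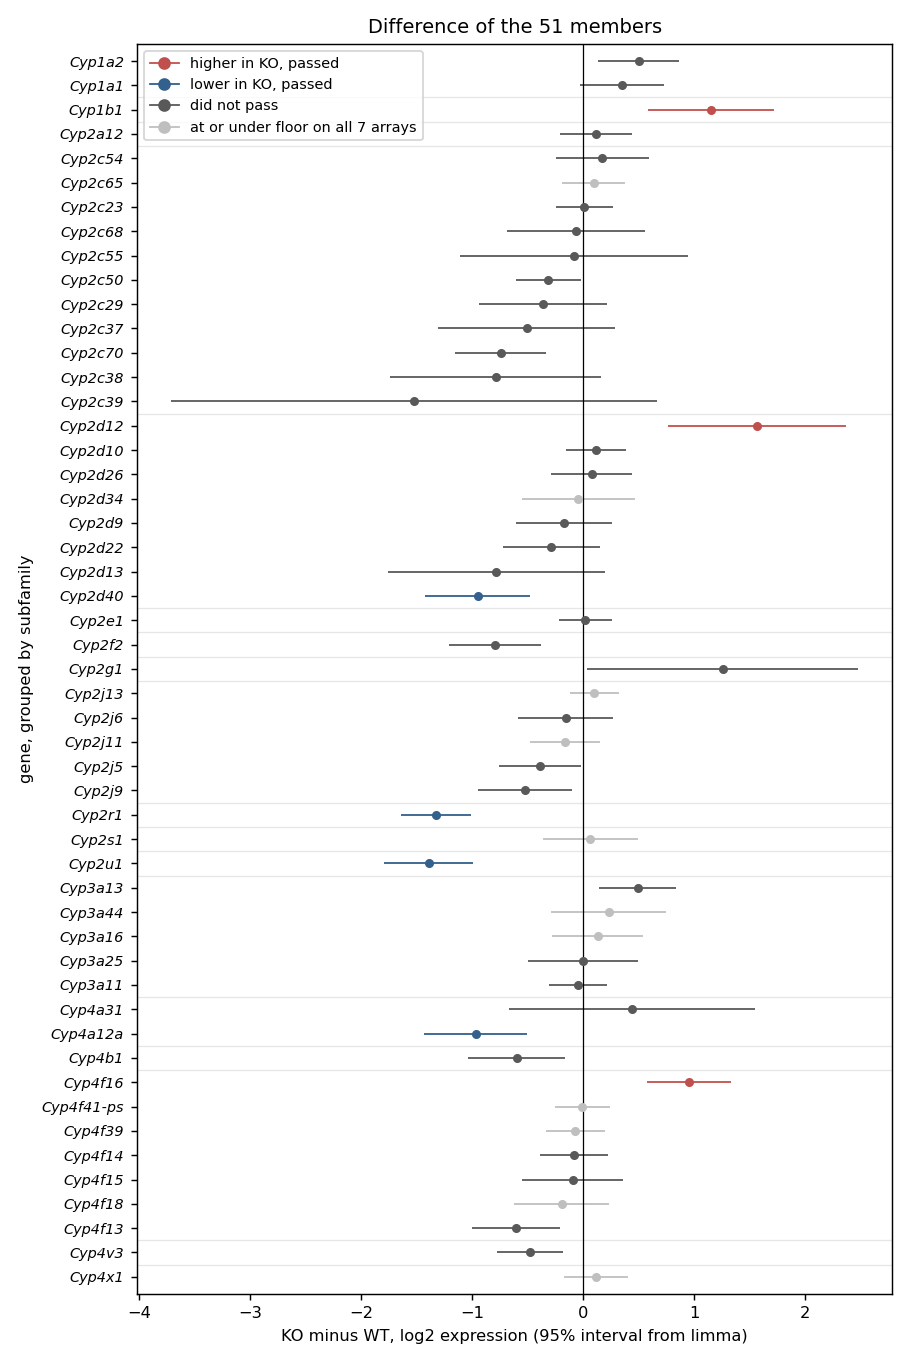
Difference of each of the 51 members, knockout minus wild type in log2 units, as a point with its 95% interval from limma, in rows grouped by subfamily. The 3 members that rose and the 4 that fell are coloured, and the 11 members under the control floor in every liver are pale.

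Family 1 holds Cyp1a1, Cyp1a2 and Cyp1b1, which oxidise aromatic hydrocarbons and estrogens and are induced through the aryl hydrocarbon receptor, a factor that binds DNA at the core GCGTG. All 3 had positive differences, and Cyp1b1 rose. The 250 bases before their start sites are shown because this core is the element known for the family, together with those of 3 further members that passed the test. They are RefSeq sequences of build GRCm38.p6, written along the gene's strand. Capitals mark GCGTG or its reverse complement CACGC, and TATAAA or its reverse complement TTTATA.
Cyp1b1, chr17:79715062-79715311, minus strand: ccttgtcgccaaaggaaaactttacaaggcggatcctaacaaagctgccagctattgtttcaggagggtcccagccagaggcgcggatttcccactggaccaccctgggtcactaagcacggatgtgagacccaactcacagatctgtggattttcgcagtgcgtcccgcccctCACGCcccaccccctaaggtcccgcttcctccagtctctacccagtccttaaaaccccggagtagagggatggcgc
Cyp1a1, chr9:57697363-57697612, plus strand: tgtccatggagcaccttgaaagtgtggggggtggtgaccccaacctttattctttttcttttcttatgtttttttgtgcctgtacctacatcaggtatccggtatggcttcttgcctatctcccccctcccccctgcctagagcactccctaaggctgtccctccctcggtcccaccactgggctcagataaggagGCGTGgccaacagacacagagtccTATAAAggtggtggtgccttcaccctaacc
Cyp1a2, chr9:57683656-57683905, minus strand: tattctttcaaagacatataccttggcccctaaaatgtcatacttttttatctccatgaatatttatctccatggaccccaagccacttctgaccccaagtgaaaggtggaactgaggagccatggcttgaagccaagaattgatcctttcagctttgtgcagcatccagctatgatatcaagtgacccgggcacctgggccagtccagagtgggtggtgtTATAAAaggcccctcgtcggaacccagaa
Cyp2r1, chr7:114562973-114563222, minus strand: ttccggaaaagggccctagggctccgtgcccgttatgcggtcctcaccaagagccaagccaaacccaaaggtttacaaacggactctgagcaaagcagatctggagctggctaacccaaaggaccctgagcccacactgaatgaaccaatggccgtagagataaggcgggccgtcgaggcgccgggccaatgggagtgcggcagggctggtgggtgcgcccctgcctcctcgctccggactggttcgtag
Cyp4f16, chr17:32536307-32536556, plus strand: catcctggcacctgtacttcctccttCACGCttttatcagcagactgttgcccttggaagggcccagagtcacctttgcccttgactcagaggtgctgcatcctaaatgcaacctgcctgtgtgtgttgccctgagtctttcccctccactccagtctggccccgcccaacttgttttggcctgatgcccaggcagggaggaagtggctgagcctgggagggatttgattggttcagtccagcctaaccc
Cyp2d40, chr15:82764123-82764372, minus strand: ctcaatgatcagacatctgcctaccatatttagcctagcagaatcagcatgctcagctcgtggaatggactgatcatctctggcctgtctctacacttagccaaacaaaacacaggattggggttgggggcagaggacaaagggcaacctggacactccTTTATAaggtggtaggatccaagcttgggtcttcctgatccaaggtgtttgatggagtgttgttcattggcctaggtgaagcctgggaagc

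The core stood in the Cyp1b1 sequence on the reverse strand, ending 72 bases before the start, and in that of Cyp1a1 on the forward strand, ending 50 bases before it. In Cyp4f16 it stood on the reverse strand, ending 220 bases before the start, and the windows of Cyp1a2, Cyp2r1 and Cyp2d40 did not hold it. TATAAA ended 25 bases before the start in Cyp1a1 and 24 bases before it in Cyp1a2. Upstream sequences were found for 39 of the 51 members, with 45 start sites. Searched on both strands, GCGTG stood in 10 of these 45 and in 28.2% of 32851 start sites of all genes. TATAAA stood in 17 of 45 and in 12.4% of all, and the nuclear receptor half-site AGGTCA in 9 of 45 and in 14.0% of all. Such matches are letters in a window, not binding sites.

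Cyp1b1, which in liver is known mainly from cells other than hepatocytes, read 5.07, 6.17, 5.98 and 6.10 in knockouts and 4.82, 4.55 and 4.68 in wild types. The genotypes did not overlap, KO-03 was the knockout nearest the wild types, and WT-103 and WT-104 lay under the floor. The rise was at least 0.89, or at least 1.86-fold (1.15 ± 0.25 as measured, SE, limma adjusted p = 0.0422). The other 2 probe sets of Cyp1b1 lay under the floor in every liver and differed by 0.27 and 0.07, and with the mean of all 3 the difference was 0.50 (limma adjusted p = 0.0703). The call was lost on leaving out any one liver except KO-03 (limma adjusted p up to 0.175).

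Of 12 markers of hepatic stellate cells, 6 were higher in the same livers (Pdgfrb, Pdgfra, Dcn, Hand2, Col1a1 and Col3a1), and none lay under the floor throughout. The other 6 did not pass (Acta2, Des, Reln, Ngfr, Rgs5 and Lrat), and of these only Lrat had a negative difference, of -0.13. The mean level of the 12 was 7.93 to 8.47 in knockouts and 7.32 to 7.48 in wild types. Of 7 bile duct cell markers 4 were higher (Krt19, Epcam, Tspan8 and Cd24a), with list means of 5.16 to 6.28 in knockouts and 4.19 to 4.46 in wild types, and Krt7 and Cftr under the floor throughout. Among 11 macrophage markers Cd14 was higher, and among 6 neutrophil markers S100a8 and S100a9, with list means of 8.19 to 8.82 and 5.70 to 6.62 in knockouts and 7.68 to 8.23 and 4.66 to 5.08 in wild types. Of 8 sinusoidal endothelial markers and of 9 T, B and NK cell markers 0 passed, with median differences of 0.11 and 0.18. The part of these cells in the level of Cyp1b1 was not tested. In bulk liver, more cells of a type and more RNA per cell cannot be told apart.

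Cyp1a2, an enzyme of the central part of the lobule that oxidises caffeine, read 13.25, 13.14, 13.06 and 12.63 in knockouts and 12.52, 12.39 and 12.65 in wild types. KO-94 lay among the wild types and the other knockouts above them. The difference was 0.50 (95% interval 0.14 to 0.86, limma adjusted p = 0.150). It passed in 2 of 19 alternatives, 1 of them without KO-94 (limma adjusted p = 0.0380). Without WT-103 the limma adjusted p was 0.430. Cyp1a1 lay above the floor in KO-03 alone, so no fold is given for it.

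Ahr, the aryl hydrocarbon receptor itself, read 9.37, 9.47, 9.82 and 9.48 in knockouts and 8.40, 8.89 and 8.96 in wild types. All knockouts lay above all wild types, a rise of 0.78 ± 0.17 (SE, limma adjusted p = 0.0418) whose call was lost on leaving out any one liver except KO-03 (limma adjusted p up to 0.124). Its partner Arnt differed by 0.14. Of 4 other genes induced through the receptor 0 passed. Nqo1, a quinone reductase, differed by 0.81 (limma adjusted p = 0.111). It passed in 3 of 19 alternatives, among them that without KO-03 (limma adjusted p = 0.0222), and elsewhere its limma adjusted p was up to 0.337. Tiparp, an ADP-ribosyltransferase, differed by -0.36 (limma adjusted p = 0.188), while Ahrr and Aldh3a1 lay under the floor in every liver.

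Cyp2r1, a liver enzyme that 25-hydroxylates vitamin D, and Cyp2u1, a fatty acid hydroxylase, had the smallest adjusted p-values among the members. Cyp2r1 read 6.11, 6.29, 5.96 and 5.93 in knockouts and 7.22, 7.36 and 7.61 in wild types. The gap between the genotypes was wider than the range within either. It fell by 1.32 ± 0.14 (SE, limma adjusted p = 0.00192), a level 2.50-fold lower in knockouts. With single livers left out, the difference was -1.41 to -1.22. Other enzymes of vitamin D did not pass. Cyp27a1, which can also 25-hydroxylate it, differed by -0.37 (limma adjusted p = 0.288), and Cyp27b1 and Cyp24a1, the activating and degrading enzymes of kidney, lay under the floor in every knockout liver.

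Cyp2u1 read 5.87, 5.97, 6.05 and 6.08 in knockouts and 7.35, 7.01 and 7.81 in wild types. The knockouts lay close together and the wild types spread more widely above them. It fell by 1.39 ± 0.18 (SE, limma adjusted p = 0.00491), a level 2.63-fold lower in knockouts, and with single livers left out the difference was -1.58 to -1.18. Its second probe set, under the floor in all knockouts and in 2 of 3 wild types, differed by -0.82 and fell in the fit of every probe set (limma adjusted p = 0.0315).

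**Figure D2:**
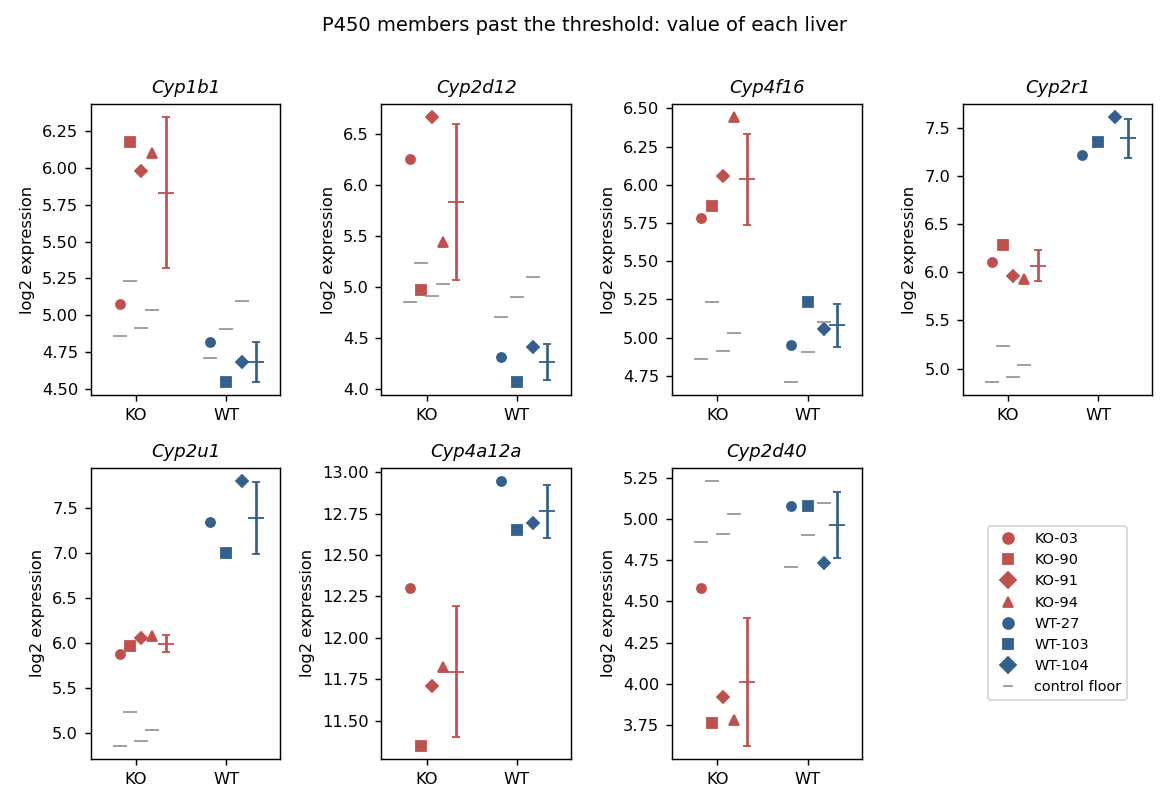
Log2 level of the 7 members that passed the test, a panel for each gene with its own axis, knockout livers left of wild-type livers, with the mean and SD beside the points and each array's control floor as a grey dash. Knockout and wild-type points do not overlap in any panel, and KO-03 is the knockout nearest the wild types for Cyp1b1, Cyp4a12a, Cyp2d40 and Cyp4f16.

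Of 8 measured Cyp2d genes 1 rose, 1 fell and 6 did not pass. Cyp2d12, Cyp2d34, Cyp2d40 and Cyp2d26 follow each other on chromosome 15 in the RefSeq gene order. Cyp2d12 read 6.26, 4.98, 6.66 and 5.45 in knockouts and 4.32, 4.07 and 4.42 in wild types. KO-90 and all wild types lay under the floor, so no fold is given for its rise (1.57 as measured, limma adjusted p = 0.0490). The call was lost on leaving out any one liver except KO-90 (limma adjusted p up to 0.196).

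Cyp2d40 read 4.58, 3.76, 3.92 and 3.78 in knockouts and 5.08, 5.08 and 4.73 in wild types. All knockouts and WT-104 lay under the floor, so no fold is given for its fall (-0.95 as measured, limma adjusted p = 0.0432). The call was lost on leaving out any one liver except KO-03 (limma adjusted p up to 0.179). Cyp2d34, between the 2 called genes, lay under the floor in every liver.

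The bright Cyp2d genes did not pass. Cyp2d9, a male-biased steroid hydroxylase, differed by -0.17 (95% interval -0.61 to 0.26). Cyp2d10 differed by 0.11 (-0.15 to 0.38) and Cyp2d26 by 0.07 (-0.29 to 0.44). Cyp2d22 and Cyp2d13 differed by -0.29 and -0.78, with intervals that include 0. These paralogs are alike in sequence, as are those of the Cyp2c, Cyp3a, Cyp4a and Cyp4f groups, and signal from a near copy cannot be told apart.

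No Cyp2c gene passed, and single livers differed widely. These enzymes oxidise drugs and turn arachidonic acid into epoxides. Of 11 measured, 0 rose and 0 fell, 8 had negative differences, and the median was -0.31. Cyp2c39 read 6.06, 4.91, 7.72 and 4.48 in knockouts and 8.53, 8.42 and 5.01 in wild types, the widest spread within genotypes of all 51 members. KO-90, KO-94 and WT-104 lay under the floor, KO-03 between, and the others higher, and the 95% interval of the difference ran from -3.71 to 0.66. Its neighbour Cyp2c38 was lowest in KO-03, with 6.13, 8.24, 7.86 and 7.16 in knockouts and 8.11, 8.19 and 8.12 in wild types.

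Cyp2c37, by contrast, was highest in KO-90 and WT-104 within their genotypes, with 10.30, 11.31, 10.04 and 10.62 in knockouts and 10.79, 10.60 and 11.83 in wild types. Cyp2c55 read 8.38, 8.90, 7.30 and 7.05 in knockouts and 7.43, 7.89 and 8.65 in wild types. Cyp2c54 read 12.31, 12.39, 12.01 and 11.94 in knockouts and 11.82, 11.75 and 12.41 in wild types. In these and in Cyp2c68, KO-90 was the highest knockout and WT-104 the highest wild type. That order held in 7 of 51 members, or 13.7%, and in 13.2% of all genes, so the share was near the background.

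Cyp2c70, the mouse enzyme that makes muricholic bile acids, read 12.82, 12.27, 12.68 and 12.09 in knockouts and 13.32, 13.09 and 13.22 in wild types. All knockouts lay below all wild types, with a difference of -0.75 (95% interval -1.16 to -0.33, limma adjusted p = 0.0640). Cyp2c70 passed in 4 of 19 alternatives, among them that without KO-03, its highest knockout (limma adjusted p = 0.0214). In the others its limma adjusted p was up to 0.203. Cyp2c50 and Cyp2c29 differed by -0.31 and -0.36, and Cyp2c23 by 0.01 (95% interval -0.25 to 0.27).

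**Figure D3:**
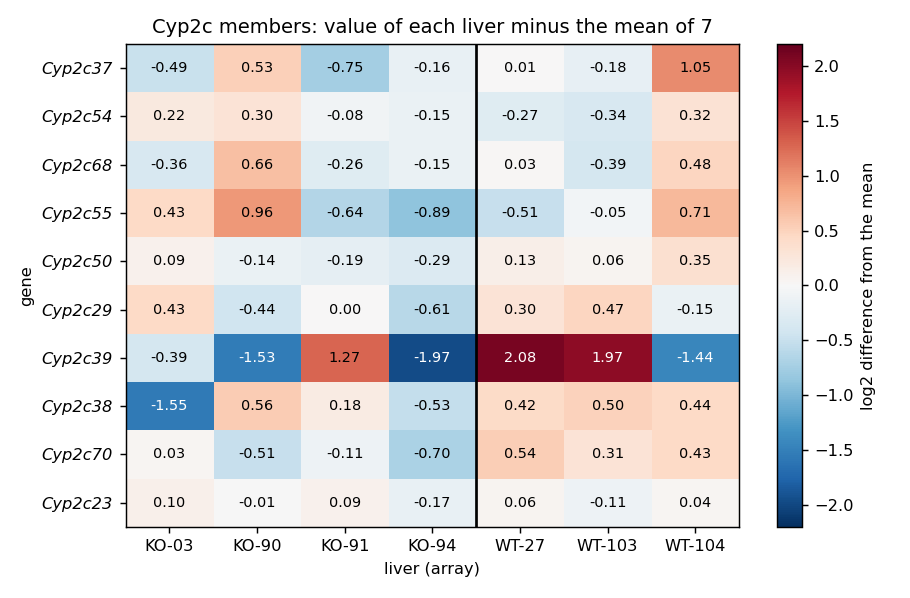
Log2 level of 10 Cyp2c genes in each liver minus that gene's mean over the 7 livers, genes in rows, knockout livers left and wild-type livers right, with red above and blue below the mean. Cyp2c39 is 1.97 below its mean in KO-94 and 1.44 below it in WT-104, while Cyp2c37 is 0.53 above its mean in KO-90 and 1.05 above it in WT-104.

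Members known for their place in the lobule did not pass. Of 7 measured pericentral members, with a median difference of -0.05, 0 rose and 0 fell. Cyp2e1, which oxidises ethanol and paracetamol, read 14.13, 13.98, 14.11 and 13.90 in knockouts and 14.03, 13.98 and 14.02 in wild types, a difference of 0.02 (95% interval -0.22 to 0.26). Cyp3a11, a main drug-oxidising enzyme of mouse liver, differed by -0.05 (-0.31 to 0.22). Cyp2f2, a periportal enzyme that oxidises naphthalene, read 13.13, 12.94, 13.00 and 12.33 in knockouts and 13.71, 13.63 and 13.61 in wild types. All knockouts lay below all wild types, with a difference of -0.80 ± 0.18 (SE, limma adjusted p = 0.0518). It passed in 8 of 19 alternatives, among them those without KO-03 or KO-94.

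The remaining members of family 2 did not pass. Among the Cyp2j genes, epoxygenases of arachidonic acid, 4 of 5 had negative differences, but Cyp2j11 among these lay under the floor in every liver. Cyp2j5 differed by -0.39 (limma adjusted p = 0.272) and Cyp2j9 by -0.53 (limma adjusted p = 0.199). Cyp2j5 passed in 1 of 19 alternatives, that without KO-03 (limma adjusted p = 0.0465), and elsewhere its limma adjusted p was up to 0.505. Cyp2g1, known from the olfactory mucosa, read 5.48, 7.58, 6.43 and 5.58 in knockouts and 4.32, 4.72 and 5.99 in wild types. WT-104 lay within the range of the knockouts and the other wild types under the floor, for a difference of at least 1.07 (limma adjusted p = 0.288). Cyp2a12, a steroid hydroxylase, differed by 0.11 (-0.21 to 0.44). Cyp2j13 lay under the floor in every liver, as did Cyp4x1 of family 4.

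Of 5 measured members of family 3, 0 passed. Cyp3a13 read 11.28, 11.07, 11.65 and 11.13 in knockouts and 10.88, 10.83 and 10.67 in wild types. All knockouts lay above all wild types, with a difference of 0.49 (95% interval 0.14 to 0.84, limma adjusted p = 0.142). Cyp3a25 differed by -0.01 (-0.50 to 0.49). The female-biased Cyp3a16 and Cyp3a44, the 2 measured of 7 listed female-biased genes, lay under the floor in every liver. Of 3 measured male-biased members, Cyp2u1 and Cyp4a12a fell and Cyp2d9 did not pass, where 0.951% of all genes fell. The labels do not give the sex of the mice, and a change in sex-biased expression was not tested.

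Of 12 measured members of family 4, 1 rose, 1 fell and 10 did not pass, with a median of -0.09. Cyp4a12a, a male-biased hydroxylase that makes 20-HETE from arachidonic acid, read 12.30, 11.35, 11.71 and 11.83 in knockouts and 12.95, 12.65 and 12.69 in wild types. It fell by 0.97 ± 0.21 (SE, limma adjusted p = 0.0392), a level 1.96-fold lower in knockouts. With single livers left out the difference was -1.14 to -0.82, and its call was lost on leaving out any one except KO-03 (limma adjusted p up to 0.140).

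Cyp4f16 read 5.78, 5.86, 6.05 and 6.44 in knockouts and 4.95, 5.23 and 5.06 in wild types, and WT-104 lay under the floor. It rose by at least 0.94, or at least 1.92-fold (limma adjusted p = 0.0192). Its probe set is of a kind that can take up related transcripts, and a second one, with 2 of 3 wild types under the floor, was at least 2.00-fold higher without passing in the fit of every probe set (limma adjusted p = 0.0732). The call was lost without KO-91 or any one wild type (limma adjusted p up to 0.0789).

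Another 3 members of family 4 lay lower in every knockout than in any wild type without passing. With Cyp4a12a these were 4 of 12 measured, where 6.61% of all genes lay so. Cyp4v3, a fatty acid hydroxylase whose human counterpart is mutated in a retinal dystrophy, read 11.99, 11.59, 11.82 and 11.55 in knockouts and 12.16, 12.23 and 12.26 in wild types. Its difference was -0.48 (limma adjusted p = 0.0929). It passed in 2 of 19 alternatives, 1 of them without KO-03 (limma adjusted p = 0.0312), and elsewhere its limma adjusted p was up to 0.273. Cyp4f13 differed by -0.61 (limma adjusted p = 0.115). It passed in 1 of 19 alternatives, that without KO-03 (limma adjusted p = 0.0388), and elsewhere its limma adjusted p was up to 0.315. Cyp4b1, best known from lung, differed by -0.60 (limma adjusted p = 0.151). Cyp4f14 and Cyp4f15 differed by -0.08 and -0.09, with 95% intervals of -0.39 to 0.22 and -0.55 to 0.36. Of 13 measured fatty acid hydroxylases and epoxygenases of families 2 and 4, 1 rose, 2 fell and 10 did not pass, with a median of -0.39.

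Of 54 measured genes that supply or control the P450 system, 2 rose, 1 fell and 51 did not pass, with a median of -0.06. Among all genes 2.58% rose and 0.951% fell. Among 15 genes of electron supply and haem metabolism, Alas1, the rate-limiting enzyme of haem synthesis, rose. It read 11.87, 11.30, 12.15 and 11.75 in knockouts and 9.97, 10.88 and 10.18 in wild types. All knockouts lay above all wild types, a difference of 1.42 ± 0.25 (SE, limma adjusted p = 0.0191), or 2.68-fold. The call was lost without KO-91, WT-27 or WT-104 (limma adjusted p up to 0.0773). The other 14 did not pass. Cyb5r3, which reduces cytochrome b5, differed by -0.36 (limma adjusted p = 0.135). The cytochrome b5 gene Cyb5a differed by 0.13 (limma adjusted p = 0.683) and the outer mitochondrial Cyb5b by -0.59 (limma adjusted p = 0.136). The haem-degrading enzyme Hmox1 differed by 0.88 (limma adjusted p = 0.184). P450 reductase was not among these 15 measured genes.

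Of 21 receptors and transcription factors, Ahr rose, and Foxa2, a factor that opens liver chromatin, fell. Foxa2 read 7.46, 7.62, 7.91 and 8.31 in knockouts and 8.94, 9.13 and 8.66 in wild types, a difference of -1.08 ± 0.21 (SE, limma adjusted p = 0.0267). The call was lost without KO-90, KO-91 or any one wild type (limma adjusted p up to 0.128). The pregnane X receptor Nr1i2 differed by 0.30 (95% interval -0.09 to 0.68), the constitutive androstane receptor Nr1i3 by 0.02 (-0.44 to 0.49) and Ppara by -0.46 (-1.47 to 0.55). The clock factor Dbp differed by 2.10 (limma adjusted p = 0.164). It passed in 2 of 19 alternatives, 1 of them without KO-94 (limma adjusted p = 0.0333), and elsewhere its limma adjusted p was up to 0.388. Of 10 genes of growth hormone signalling 0 passed, with 4 positive and 6 negative differences and a median of -0.10. Cish, which STAT5 induces, differed by -1.17 (limma adjusted p = 0.0646) and Stat5b by -0.47 (limma adjusted p = 0.135). Cish passed in 3 of 19 alternatives, among them that without WT-104 (limma adjusted p = 0.0390), and elsewhere its limma adjusted p was up to 0.242. Igf1 differed by 0.20, with all knockouts above all wild types, Socs2 by 0.57 and Tox by at least 0.21. Of 4 epoxide hydrolases, which open the epoxides that P450 enzymes make, 0 passed, with Ephx2 at -0.50 (limma adjusted p = 0.245) and Ephx3 and Ephx4 under the floor.

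**Figure D4:**
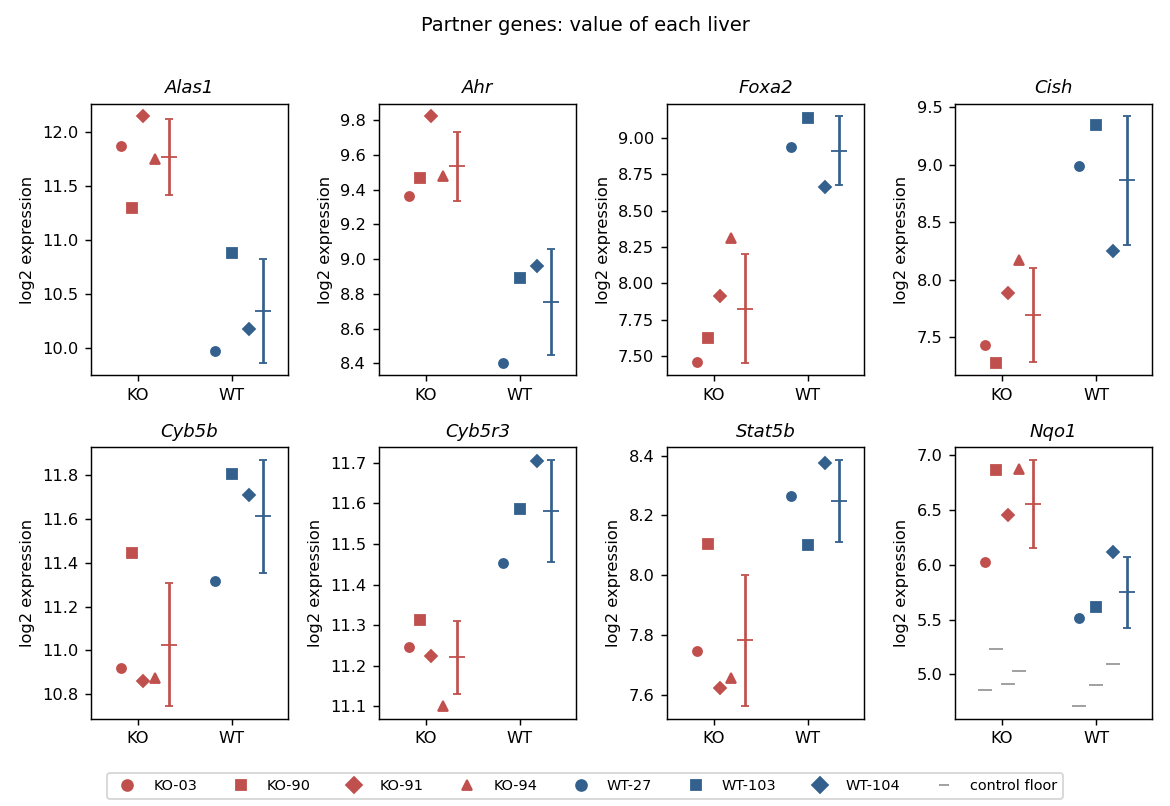
Log2 level of 8 genes that supply or control the P450 system, a panel for each gene with its own axis, knockout livers left of wild-type livers, with the mean and SD beside the points. Knockouts lie above all wild types for Alas1 and Ahr, which rose, and below them for Foxa2, which fell. They also lie below all wild types for Cish and Cyb5r3, which did not pass. The genotypes overlap for Cyb5b, Stat5b and Nqo1, which did not pass either.

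P450 genes of families 5 and above make and break down steroids, bile acids and vitamins. Of 16 measured, 0 rose and 0 fell in limma, and 6 stood at an unadjusted p under 0.05. The called shares of all genes were 2.58% and 0.951%, so few calls could arise among 16 genes. Cyp39a1, an oxysterol hydroxylase with KO-03 under the floor, was lower in knockouts by at least 1.61 without passing (limma adjusted p = 0.135). Cyp26a1, which breaks down retinoic acid, differed by -1.44 (limma adjusted p = 0.160), and by -0.85 without WT-104. Whether the 7 calls among 51 members differ from 0 among these 16 was not tested.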

How the data were processed

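RNA from frozen liver was labelled with biotin for Affymetrix arrays, per the labels' protocols. The authors deposited log2 values, 1 for each probe set in each of 7 livers, after robust multi-array analysis (RMA) in Partek, per the series' design text. No software version is given in the sources used here. Values ran from 2.20 to 14.9. Arrays carry no counts, so their number limits the precision.

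Of 45101 probe sets, 34945 had 1 symbol in the platform annotation. Where a gene had several, the one brightest on average across all livers stood for it. The 51 members had 62 probe sets, and 4 probe sets that name several genes were not used. The genotypes were tested in limma 3.58.1 (R 4.3.3; lmFit, eBayes, no covariates, two-sided), checked on simulated data. P-values were Benjamini-Hochberg adjusted over 18193 genes at a threshold of 0.05. Residual degrees of freedom were 5, with 3.99 from the prior. Python 3.11.15, pandas 2.3.3 and matplotlib 3.10.9 made tables and figures.

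Members, gene lists, floor and tests were chosen with earlier results of these data known. Named genes are the called members, those with the smallest p until 12 rises and 12 falls by sign were named, the members of the family 1, sex-biased and zonated lists, and for other lists the called genes and the 3 with the smallest p. Cyp2c and Cyp2d genes beyond these, Cyp2a12, Cyp2j11, Cyp3a25, Cyp4f14, Cyp4f15, Arnt, Ahrr, Cyp27a1, Cyp24a1, Cyb5a, Hmox1, Nr1i2, Nr1i3, Ppara, Igf1 and Socs2 were added after their values were seen. Alternatives were 2 priors, weighted arrays, 2 normalizations, 2 filters on dim genes, 4 probe set rules, 2 thresholds and single livers left out. Dropping KO-03 with WT-104 was added after seeing the data.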

Additional observations from a re-analysis of the deposited data

Results flagged for a closer look

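Of 48 named genes, 2 had a knockout liver that stood apart from the other 3, where chance gives about 1 in 20 groups. Cyp3a16 read 3.219 in KO-94 and 2.557 to 2.665 in the other knockouts, all under the floor. Cyb5b read 11.45 in KO-90 and 10.86 to 10.92 in the other knockouts.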

How the results depend on the processing

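Of 30 named members, 14 kept their direction and their side of the threshold in every alternative run for them, among them Cyp2r1 and Cyp2u1. The other 5 called members lost their call in at least 1 alternative, and 7 members that did not pass did so in at least 1. Signs turned for 4 members that did not pass. Cyp2e1 was -0.0165 to 0.0612 without single livers and -0.011 without KO-03 and WT-104, Cyp3a11 -0.105 to 0.0110 without single livers, Cyp3a16 -0.0206 to 0.226 without single livers (lowest without KO-94) and 0.296 without KO-03 and WT-104, and Cyp3a44 0.0144 to 0.391 without single livers (highest without KO-90) and -0.00999 without KO-03 and WT-104. Without single livers, 0 to 2 members rose and 2 to 9 fell, 0 to 4 partner genes rose and 0 to 1 fell, 0 P450 genes of families 5 and above rose and 0 to 1 fell, and 132 to 892 of all genes rose and 37 to 252 fell. Array weights gave 5 rises and 7 falls among members, 4 and 3 among partner genes, 1 fall in families 5 and above, and 909 and 344 among all genes. The calls gained with array weights were Cyp1a2, Cyp3a13, Cyp2c70, Cyp2f2 and Cyp4v3 among members, Nqo1, Dbp, Cish and Cyb5b among partner genes, and Cyp39a1. An adjusted p under 0.01, which must leave fewer, gave 0 and 2 among members, 0 and 0 among partner genes, and 141 and 31 among all genes. Rising members were 0 when genes had to reach the median level, 1 at a group mean of at least 6, and 1 with the mean of all probe sets. Testing each probe set gave 1 rise and 2 falls among members and 1 rise among partner genes. Without KO-03 and WT-104, 2 partner genes fell and 724 of all genes rose. Where a setting does not itself remove genes or livers, the cause was not tested. No paired analysis was possible because the labels give no litter or processing day. Levels near the floor limit Cyp1b1, Cyp2d12, Cyp2d40 and Cyp4f16.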

Other observations

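The knockout livers kept a common order over many P450 members, an observation made after the values were seen. KO-03 was the highest knockout in 27 of 51 members, or 52.9%, and in 20.7% of all genes. KO-94 was the lowest knockout in 29 of 51 members, or 56.9%, and in 20.2% of all genes. Among the 40 members above the floor in at least 1 liver the shares were 57.5% and 67.5%, against 20.6% and 21.4% of 12082 such genes. Of the 9 members that lay lower in every knockout than in any wild type, KO-03 was highest for Cyp2c70, Cyp2d40, Cyp2f2, Cyp4a12a, Cyp4b1, Cyp4f13 and Cyp4v3, but not for Cyp2r1, where KO-90 was highest, or Cyp2u1, where KO-03 was the lowest knockout. KO-03 was also highest for Cyp2e1, Cyp3a11, Cyp2d9 and Cyp1a2, whose genotypes overlapped. The order was not particular to P450 members. Ghr read 12.37, 11.81, 12.14 and 10.89 in knockouts, and Ephx1 11.94, 11.81, 11.76 and 11.22. Hnf4a ran the other way, with 11.76, 11.96, 12.04 and 12.17. The share of other hepatocyte genes with either order was not counted. On the first principal component of all genes KO-03 was the lowest knockout and KO-94 the highest, at -1.32 and 42.5. All members of a liver share 1 array and paralogs share sequence, so they are not independent, and no test was made. The standard deviation was larger in knockouts than in wild types for 38 of 51 members, or 74.5%, and for 63.7% of all genes.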
